A study of Homo sapiens with 6 samples.

Results

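The metallothioneins MT2A, MT1X, MT1E, MT1F, MT1G, MT1H and MT1M were examined together with the zinc exporter SLC30A1 and the zinc-sensing transcription factor MTF1 in Cal27 cells, a human tongue squamous cell carcinoma line, after knockdown of IL-1β. Every probe set whose platform annotation listed exactly 1 gene symbol among these 9 genes was taken, which gave 17 probe sets of 54613 on the array, for 9 of the 19775 genes so named, 11 for the metallothioneins and 6 for SLC30A1 and MTF1. Of the 17, 15 passed the filter on low signal and entered the test, among 27566 probe sets tested in all. RNA from 3 samples of cells that carried a lentiviral short hairpin against IL1B (LV-shIL-1β) and from 3 samples that carried a scrambled hairpin (LV-shNC) was hybridized to 1 Affymetrix U133 Plus 2.0 array each. Both groups were transduced with lentivirus and selected over 2 weeks with 2 µg/mL of puromycin, so the comparison was between stably selected cell populations, with 1 hairpin for each. Neither labels nor methods state that the 3 samples of a group were grown as separate cultures. The p-values therefore cover no more than array-to-array spread, and that spread may be technical.

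Metallothioneins are small cysteine-rich proteins that bind zinc and copper and buffer these metals in the cytoplasm, and in humans their genes lie side by side on chromosome 16. When free zinc rises, MTF1 enters the nucleus and binds metal response elements in their promoters, and it also activates SLC30A1 (ZnT1), which moves zinc out through the plasma membrane. Glucocorticoids, oxidants and cytokines of the interleukin-1 and interleukin-6 families are known to induce metallothioneins as well, best described in liver, and basal keratinocytes and many squamous carcinomas are known to contain them.

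The promoters are shown because metal response elements are the sequence feature through which zinc is known to act on metallothioneins and SLC30A1. RefSeq (GRCh38.p14) promoter windows were matched for 5 of the 9 genes, and the 250 bases before the transcription start are given 5′ to 3′ on the gene's strand for MT2A (chr16:56608334-56608583, plus strand), MT1X (chr16:56682220-56682469, plus strand), MT1H (chr16:56669564-56669813, plus strand), SLC30A1 (chr1:211579162-211579411, minus strand) and MTF1 (chr1:37859593-37859842, minus strand). Capitals mark each match to the metal response element core, searched as TGCACNC and TGCGCNC on both strands.
MT2A: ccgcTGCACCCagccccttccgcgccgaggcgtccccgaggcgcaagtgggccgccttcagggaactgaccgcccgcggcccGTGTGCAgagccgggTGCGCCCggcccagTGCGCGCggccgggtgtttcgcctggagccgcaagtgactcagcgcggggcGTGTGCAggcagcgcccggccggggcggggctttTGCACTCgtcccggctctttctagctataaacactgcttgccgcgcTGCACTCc
MT1X: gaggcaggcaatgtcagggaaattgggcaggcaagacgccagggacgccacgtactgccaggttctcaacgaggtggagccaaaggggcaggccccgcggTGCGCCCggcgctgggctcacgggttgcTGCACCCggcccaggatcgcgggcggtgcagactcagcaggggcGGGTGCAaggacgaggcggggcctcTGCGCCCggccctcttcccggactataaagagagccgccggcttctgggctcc
MT1H: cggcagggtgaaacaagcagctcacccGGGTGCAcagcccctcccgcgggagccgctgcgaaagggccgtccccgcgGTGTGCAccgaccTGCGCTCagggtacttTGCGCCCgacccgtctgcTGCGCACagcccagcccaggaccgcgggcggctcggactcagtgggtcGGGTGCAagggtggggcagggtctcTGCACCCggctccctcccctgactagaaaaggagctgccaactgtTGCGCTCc
SLC30A1: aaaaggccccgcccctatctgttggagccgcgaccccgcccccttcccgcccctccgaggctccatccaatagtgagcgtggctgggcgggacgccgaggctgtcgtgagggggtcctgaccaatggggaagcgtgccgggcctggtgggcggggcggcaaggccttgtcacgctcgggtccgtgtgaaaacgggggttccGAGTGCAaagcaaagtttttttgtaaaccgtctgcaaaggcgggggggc
MTF1: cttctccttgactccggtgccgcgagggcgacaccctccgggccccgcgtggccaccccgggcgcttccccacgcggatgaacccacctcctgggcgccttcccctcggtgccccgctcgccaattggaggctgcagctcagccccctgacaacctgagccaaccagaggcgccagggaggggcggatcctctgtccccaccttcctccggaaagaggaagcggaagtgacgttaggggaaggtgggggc
The core occurred 8 times in the MT1H window, 7 times in that of MT2A and 4 times in that of MT1X. Of the 35116 promoter windows of the same length in the table, 24.8% held at least 1 match, 0.37% held at least 4 and 0.0313% held at least 7. The SLC30A1 window held 1 match, on the other strand and 49 bases before the start, and 18.3% of all windows held exactly 1, while the MTF1 window held none, as did 75.2% of all windows. A match is a run of letters and not a measured binding site, and the absence of a match says nothing about MTF1.

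**Figure D1:**
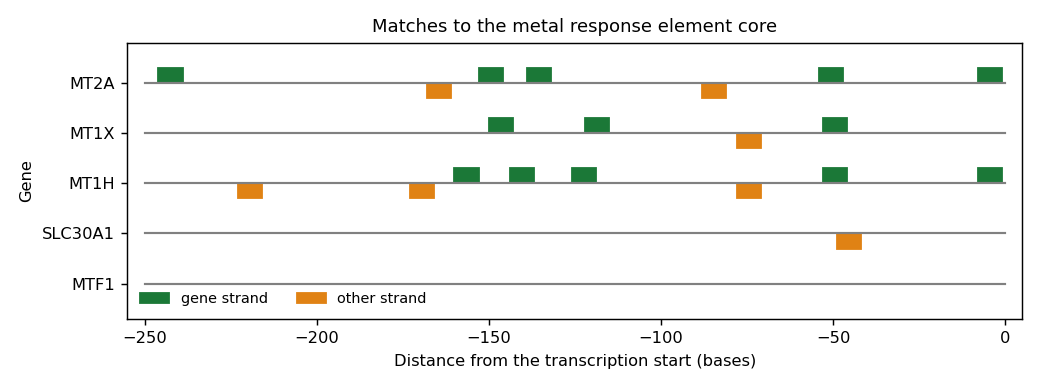
Matches to the metal response element core in the 250 bases before the start of each gene. The horizontal axis is the distance from the transcription start in bases, and blocks above and below each line are matches on the gene strand and on the other strand, with 8 for MT1H, 7 for MT2A, 4 for MT1X, 1 for SLC30A1 and none for MTF1.

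The targeted transcript was lower in the knockdown cells. The brighter IL1B probe set gave a signal of 1569, 1569 and 1596 on the LV-shIL-1β arrays, against 2677, 2611 and 2494 on the LV-shNC arrays. This was a log2 fold change of -0.72 ± 0.04 (SE), and the other IL1B probe set gave -0.74 ± 0.04, both with a limma adjusted p of 2.46e-05. Array medians lay between 18.36 and 18.86. Over all tested probe sets 1014 were higher and 929 lower in LV-shIL-1β cells at an adjusted p under 0.05. The log2 ratio of the 3′ to the 5′ GAPDH control probe set, a sign of RNA quality, was 0.0392 ± 0.0134 in LV-shIL-1β and -0.017 ± 0.0342 in LV-shNC (SD, n = 3 each), and that of ACTB was 0.393 ± 0.0536 and 0.412 ± 0.129. Their part in the results below was not tested. Squamous markers were present: the kept probe sets of 9 such genes summed to between 31040 and 31370 in LV-shIL-1β and between 33100 and 34440 in LV-shNC. Of these 9 genes KRT5, KRT14 and PKP1 fell and the other 6 did not pass the test.

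Metallothionein probe sets were bright in Cal27 cells and mostly slightly lower after IL-1β knockdown. The summed signal of all 11 metallothionein probe sets was between 27970 and 28700 on the LV-shIL-1β arrays and between 29670 and 31020 on the LV-shNC arrays. All 10 that were tested had a log2 fold change below 0, where 46.8% of all tested probe sets did, with a median of -0.10, against 0.01 over all tested probe sets. In 8 of the 10 every LV-shIL-1β array was below every LV-shNC array, where this held for 12.6% of all tested probe sets. Only 1 of the 10 passed the adjusted threshold, and 3.37% of all tested probe sets were called lower. At an unadjusted limma p under 0.05 there were 7 lower, where 9.62% of all tested probe sets were lower at that level. In bulk RNA fewer cells that express a gene cannot be told apart from less RNA per cell. The summed squamous marker signal moved the same way, but KRT14 alone averaged 5613 in LV-shIL-1β and 7175 in LV-shNC cells. At their brightest probe sets 5 of the 9 squamous genes were below 0 and 4 above. The part of the squamous markers in the metallothionein result was not tested.

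These 10 probe sets are not 10 independent measurements. Metallothionein transcripts are close in sequence, and 9 of the 10 carry the _x_at ending that Affymetrix gives to probe sets that may cross-hybridize with other transcripts. The signal of each gene may therefore contain that of its relatives. Of the 7 genes, MT1M alone had a tested probe set without that ending, and MT1M did not pass the test. MT1G also had a probe set without it, which lay below the filter, at 7.94 in LV-shIL-1β and 8.09 in LV-shNC cells on average. The _x_at probe set of MT1G averaged 1518 and 1630.

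MT2A, the most widely expressed human metallothionein, had a signal of 6602, 6586 and 6602 in LV-shIL-1β cells, against 6898, 7062 and 7058 in LV-shNC cells. The groups did not overlap, and the LV-shIL-1β arrays lay close together. The difference was small: a log2 fold change of -0.09 ± 0.02 (SE), or -5.84% with a 95% confidence interval of -9.29% to -2.26%, and it missed the threshold (limma adjusted p = 0.0614). The means were 6597 ± 8.92 and 7006 ± 93.4 (SD, n = 3 each).

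MT1X, an MT1 isoform found in many tissues, was read by a pair of probe sets. The brighter gave 3843, 3893 and 3789 in LV-shIL-1β cells, against 4172, 4069 and 4162 in LV-shNC cells, without overlap. Its log2 fold change was -0.11 ± 0.03 and its limma adjusted p was 0.0528. The dimmer is annotated as MT1X on the platform, while RefSeq now assigns the transcript it was built on to MT1L, a transcribed metallothionein pseudogene of the same cluster that lies next to MT2A. Its signal was 2739, 2675 and 2522 in LV-shIL-1β cells, against 2908, 3090 and 3301 in LV-shNC cells. It fell by 0.23 ± 0.05 on the log2 scale, -14.6% with a 95% interval of -20.9% to -7.76%, and it was the metallothionein probe set that passed the test (limma adjusted p = 0.0257). The call was lost without LV-shIL-1β replicate 2 (limma adjusted p = 0.096), LV-shIL-1β replicate 3 (0.0893), LV-shNC replicate 2 (0.0742) or LV-shNC replicate 3 (0.0799), and in a fit with replicate number as block (0.111).

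MT1F, another MT1 isoform, showed the same order of groups at both its probe sets, of which the dimmer had the larger difference. The dimmer gave 428.9, 414.3 and 403.0 in LV-shIL-1β cells, against 452.7, 461.0 and 492.0 in LV-shNC cells, a log2 fold change of -0.17 ± 0.05 (limma adjusted p = 0.0787). The brighter averaged 2414 ± 72.1 in LV-shIL-1β cells and 2555 ± 73.7 in LV-shNC cells (SD, n = 3 each), a log2 fold change of -0.08 ± 0.04. Neither passed the test, and neither pair of groups overlapped.

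MT1G, MT1H and MT1E, further MT1 isoforms, differed by small amounts and did not pass the test. MT1G gave 1578, 1519.7 and 1455 in LV-shIL-1β cells, against 1605, 1629 and 1656 in LV-shNC cells. MT1H gave 2572, 2567 and 2534 in LV-shIL-1β cells, against 2626, 2731 and 2724 in LV-shNC cells. In both the groups did not overlap, but the log2 fold changes, -0.10 ± 0.04 and -0.07 ± 0.03, had limma adjusted p of 0.159 and 0.197. The brighter MT1E probe set gave 5343, 5269 and 5402 in LV-shIL-1β cells, against 5364, 5562 and 5616 in LV-shNC cells, with overlap and a log2 fold change of -0.05 ± 0.03. The dimmer averaged 2990 ± 114 in LV-shIL-1β cells and 3189 ± 107 in LV-shNC cells (SD, n = 3 each), without overlap and with a log2 fold change of -0.09 ± 0.04, and neither MT1E probe set passed the test.

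MT1M, an MT1 isoform with restricted tissue expression, had a low signal and a wide spread between LV-shNC arrays. Its signal was 54.7, 59.4 and 63.1 in LV-shIL-1β cells, against 58.7, 68.4 and 79.1 in LV-shNC cells. The groups overlapped, and the log2 fold change of -0.21 ± 0.11 did not pass the test (limma adjusted p = 0.284). The other MT1G probe set lay below the filter, at 7.94 in LV-shIL-1β cells and 8.09 in LV-shNC cells on average, and was not tested.

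**Figure D2:**
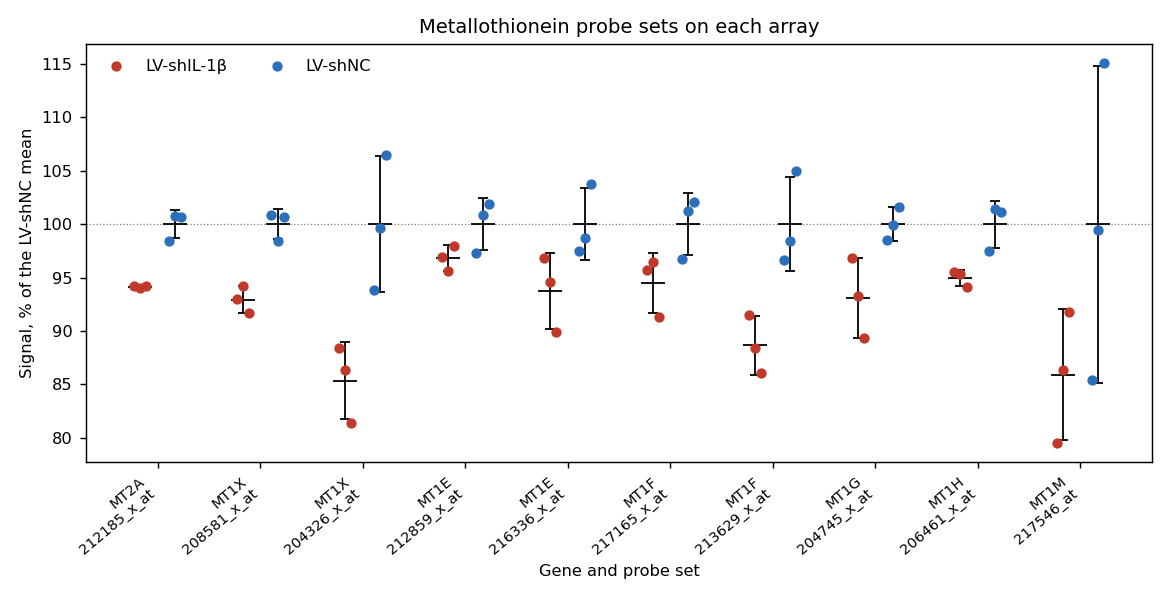
Signal of each tested metallothionein probe set on each array, as a percentage of its LV-shNC mean, with LV-shIL-1β left and LV-shNC right of each position. Points are arrays and the bars give the mean ± SD (n = 3 each); LV-shIL-1β arrays lie between 79.54% and 97.98%, and only MT1M and the brighter MT1E probe set overlap between the groups.

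The arrays of each group were compared through the mean log2 signal of the brightest probe set of each of the 7 genes. This profile was 10.852, 10.861 and 10.851 in LV-shIL-1β and 10.903, 10.962 and 11.003 in LV-shNC. The LV-shNC arrays spread more widely than the LV-shIL-1β arrays. LV-shNC replicate 1 was the lowest control at 9 of the 10 probe sets and LV-shNC replicate 3 was the highest at 7 of them. Among the 642 tested probe sets with a mean signal over 2000, 50.8% were below 0 and 15.4% were lower without overlap. Their median log2 fold change was -0.001. Of them 5.45% were called lower and 2.49% higher, against 3.37% and 3.68% of all tested probe sets. MT1G, MT1M and the dimmer MT1F probe set lay below that signal. The part of signal level in the metallothionein result was not tested. The central 90% of those 642 ran from -0.174 to 0.121, a range that contains the change of every metallothionein probe set over 2000 but the dimmer one of MT1X.

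SLC30A1, the zinc exporter of the plasma membrane, lay in the opposite direction. The dimmer of its tested probe sets gave 79.1, 84.8 and 80.2 in LV-shIL-1β cells, against 65.9, 66.2 and 66.0 in LV-shNC cells. It rose by 0.30 ± 0.06 on the log2 scale, 23.1% with a 95% interval of 11.5% to 35.9% (limma adjusted p = 0.0229). The brighter gave 199.7, 209.9 and 216.0 in LV-shIL-1β cells, against 185.6, 171.3 and 192.4 in LV-shNC cells. Its log2 fold change was 0.19 ± 0.06, or 13.9%, with a limma adjusted p of 0.112. Both were higher without overlap, as were 15.3% of all tested probe sets, and 1 of the 2 was called higher, where 3.68% of all tested probe sets were. The LV-shNC arrays of the dimmer probe set lay close together, with an SD of 0.148 about a mean of 66.04, or 0.224% of it, against 1.33% to 14.8% for the metallothioneins. The call was lost without LV-shIL-1β replicate 2 (limma adjusted p = 0.103), LV-shIL-1β replicate 3 (0.0702), LV-shNC replicate 1 (0.0574), LV-shNC replicate 2 (0.0707) or LV-shNC replicate 3 (0.0667), and in a fit with replicate number as block (0.115). The remaining SLC30A1 probe set averaged 5.55 in LV-shIL-1β cells and 5.45 in LV-shNC cells, under the filter.

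MTF1, the zinc sensor that activates both the metallothionein genes and SLC30A1, did not pass the test at any of its 3 probe sets. The brightest gave 134.0, 136.6 and 140.9 in LV-shIL-1β cells, against 133.3, 133.9 and 137.0 in LV-shNC cells. Its log2 fold change was 0.03, with a 95% interval of -0.10 to 0.15 and a limma adjusted p of 0.831. The next averaged 98.23 ± 4.51 in LV-shIL-1β cells and 90.9 ± 3.67 in LV-shNC cells (SD, n = 3 each), and the dimmest 88.46 ± 1.69 and 86.87 ± 2.43. The groups overlapped at all 3. As background, MTF1 activity is known to be set by zinc binding and nuclear entry, which transcript signal does not read.

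**Figure D3:**
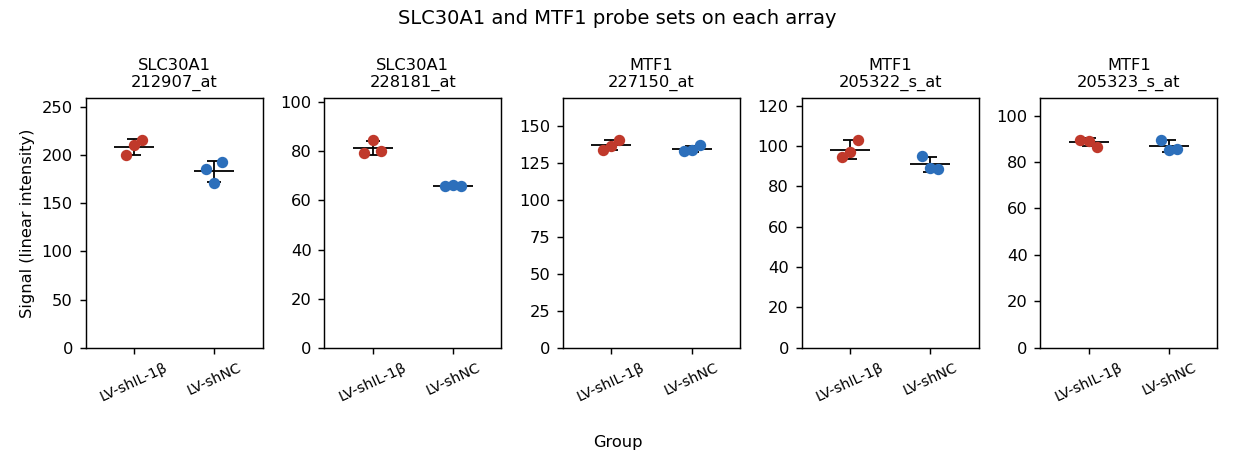
Signal of the tested SLC30A1 and MTF1 probe sets on each array (linear intensity, vertical axes from 0), with LV-shIL-1β left and LV-shNC right. Points are arrays and bars give the mean ± SD (n = 3 each); both SLC30A1 probe sets are higher in LV-shIL-1β without overlap and the 3 MTF1 probe sets overlap.

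**Figure D4:**
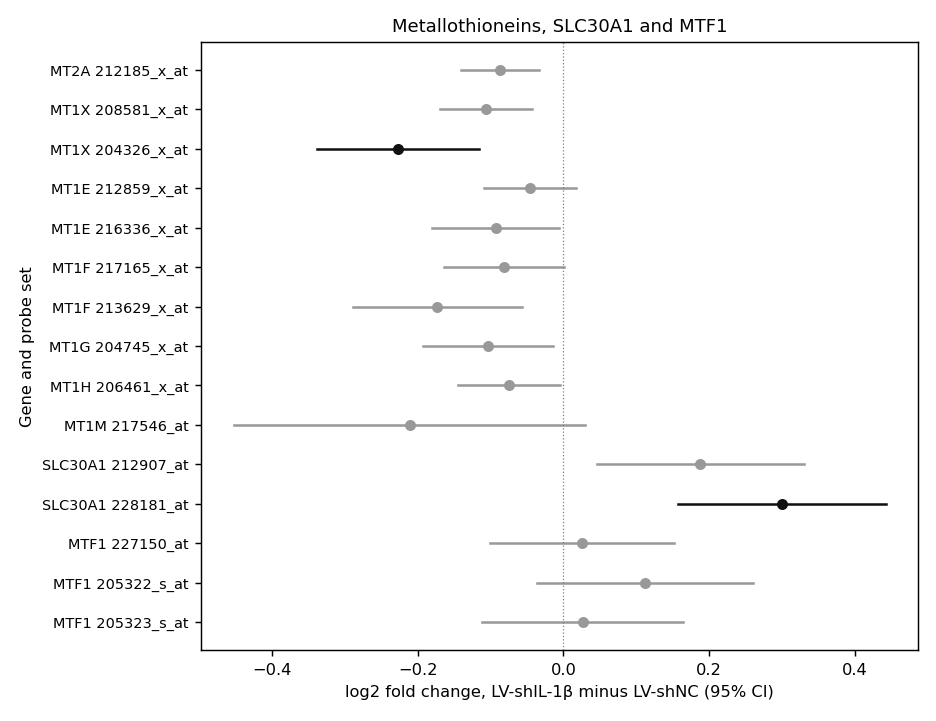
Log2 fold change of the 15 tested probe sets, LV-shIL-1β minus LV-shNC, with 95% confidence intervals from limma. Black marks an adjusted p under 0.05, which the dimmer probe sets of MT1X (-0.23) and SLC30A1 (0.30) reached, and grey marks the other 13.

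The other zinc transporters were examined next, each gene by its brightest tested probe set. For comparison, 3.37% of all tested probe sets were called lower and 3.68% called higher. Of 6 further SLC30 genes above the filter, whose products mostly move zinc out of the cytoplasm, SLC30A7 fell and the other 5 did not pass. SLC30A7, which loads zinc into the Golgi, gave 226.8, 210.5 and 182.5 in LV-shIL-1β cells, against 255.0, 268.3 and 283.8 in LV-shNC cells. The log2 fold change was -0.39 ± 0.08, and that of the next brightest probe set was -0.37 ± 0.09 (limma adjusted p of 0.0227 and 0.0328). The dimmest SLC30A7 probe set gave -0.16 ± 0.09 and did not pass. Both calls were lost without LV-shIL-1β replicate 2 (limma adjusted p of 0.086 and 0.141), LV-shIL-1β replicate 3 (0.0646 and 0.114), LV-shNC replicate 2 (0.0685 and 0.109) or LV-shNC replicate 3 (0.0809 and 0.0968), and with the replicate block (0.102 and 0.13).

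Of 13 SLC39 genes, whose products bring zinc into the cytoplasm, SLC39A8 rose, SLC39A10 fell and the other 11 did not pass. Over all tested probe sets 3.68% were called higher and 3.37% lower. SLC39A8, a plasma membrane importer of zinc and manganese, gave 176.3, 182.6 and 168.7 in LV-shIL-1β cells, against 101.8, 122.4 and 124.7 in LV-shNC cells, a log2 fold change of 0.60 ± 0.08 (limma adjusted p = 0.00308). Further SLC39A8 probe sets gave 0.53 ± 0.08 and 0.52 ± 0.10 and also passed, although the last did not without LV-shIL-1β replicate 2 (limma adjusted p = 0.0565) or with the replicate block (0.0644), while the dimmest tested gave 0.07 ± 0.15. SLC39A10, a zinc importer of the plasma membrane, gave 113.5, 119.3 and 113.9 in LV-shIL-1β cells, against 152.5, 139.6 and 154.7 in LV-shNC cells. That was a log2 fold change of -0.36 ± 0.06 (limma adjusted p = 0.00956), and with the replicate block the adjusted p was 0.0707. SLC39A14, the importer that interleukins are known to induce in liver, averaged 648.6 ± 52.7 in LV-shIL-1β cells and 684.7 ± 11 in LV-shNC cells (SD, n = 3 each), with overlap. The 16 transporter genes that did not pass, SLC30A1 apart, had log2 fold changes from -0.12 to 0.14.

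**Figure D5:**
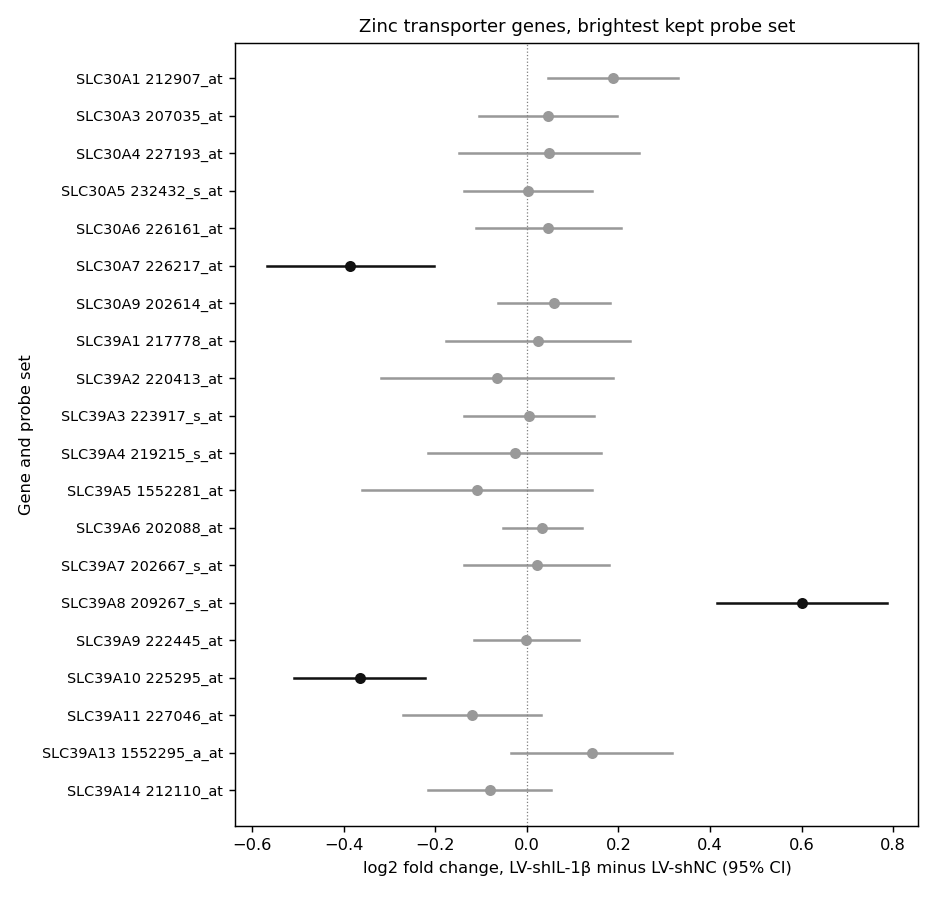
Log2 fold change of each zinc transporter gene at its brightest tested probe set, LV-shIL-1β minus LV-shNC, with 95% confidence intervals from limma. Black marks an adjusted p under 0.05: SLC39A8 lies at 0.60, SLC39A10 at -0.36 and SLC30A7 at -0.39, while the brightest SLC30A1 probe set, at 0.19, did not pass.

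The remaining metallothionein genes on the array gave no call. MT1HL1, a close relative of MT1H, gave 3024, 2969.9 and 2945 in LV-shIL-1β cells, against 3052, 3177 and 3185 in LV-shNC cells, a log2 fold change of -0.07 ± 0.03 (limma adjusted p = 0.195). MT3 and MT4, known from brain and from stratified squamous epithelium, were dim, at 23.18 ± 2.96 and 23.55 ± 3.1 in LV-shIL-1β cells and 25.87 ± 0.744 and 22.4 ± 0.516 in LV-shNC cells (SD, n = 3 each), with overlap.

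The genes on either side of the metallothionein cluster were also read. In RefSeq order 15 genes run from MT2A to MT1X, and the 9 protein-coding ones are all metallothioneins. Of the nearest 10 protein-coding genes on each side, 14 of the 20 had a tested probe set. None of the 14 passed the limma test in either direction, where 3.37% of all tested probe sets were called lower and 3.68% higher. Of the 14, 8 were below 0, where 46.8% of all tested probe sets were. Their median log2 fold change was -0.02, with a range of -0.18 to 0.13. NUDT21, a factor of mRNA 3′ end processing, averaged 729.5 in LV-shIL-1β cells and 762.6 in LV-shNC cells, and OGFOD1, a ribosomal protein hydroxylase, averaged 519.9 and 483.9.

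The probe sets most like the metallothionein profile over the 6 arrays were those of RWDD2B (Pearson r of 0.998), TMEM19 (0.994), LYPD6B (0.993), CA5BP1 (0.992) and LUZP1 (0.992). The metallothionein profile did not overlap between the groups, so this likeness carries in part the difference between them. The LV-shNC arrays ran from 10.903 to 11.003 in that profile, so their order enters it too. It is given as a description. RWDD2B fell by 0.35 ± 0.08 on the log2 scale (limma adjusted p = 0.031), a call lost without any 1 array but LV-shNC replicate 1 (limma adjusted p from 0.0619 to 0.107) and with the replicate block (0.101). The other 4 did not pass.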

How the data were processed

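The intensity values analysed here are linear MAS5 signal as deposited by the authors, 1 column per array. MAS5 is credited to the submitters' processing notes, which give neither version nor settings, and whether values were also adjusted across arrays is not given in the sources used here. Per the labels, labelled cRNA was made from 6 µg of total RNA. A genome build is not given in the sources used here. The array's 62 control probe sets were set aside. Of the rest, 41091 had 1 gene symbol in the platform annotation, 1801 several and 11721 none, and only those with 1 were named. Arrays were grouped by their titles, 3 per group.

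Probe sets above the median of all values (18.57) on at least 3 of 6 arrays were kept. Log2 signal was tested with limma 3.58.1 in R 4.3.3 (lmFit and eBayes with a trend, two-sided), with Benjamini-Hochberg adjustment over 27566 probe sets and a threshold of 0.05. The code was tested on simulated data. Arrays give no depth, and precision is limited by the 3 arrays per group, and an exact permutation test of 3 against 3 cannot go below 0.1.

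The genes and lists were chosen with earlier results of these data known. All members are named, with IL1B, genes of the lists past the threshold or given as examples, and the 5 probe sets most like the metallothioneins. Lists held other metallothioneins, SLC30 and SLC39 transporters, copper, metal and oxidant stress, glucocorticoid and IL-6 genes, and squamous, fibroblast, leukocyte and endothelial markers. Alternatives were median centring, quantile normalization, a pseudocount of 16, no filter or a stricter one, no trend, array weights, a replicate block, the methods' t-test, a criterion of fold over 1.5 with an unadjusted p, leaving out probe sets that may cross-hybridize, adding those with several symbols, leaving out each array, and cyclic loess, which was chosen after seeing the data. Promoter windows came from RefSeq (GRCh38.p14).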

Additional observations from a re-analysis of the deposited data

How the results depend on the processing

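All 10 metallothionein probe sets stayed below 0 under every alternative run on them. Changing the filter, the trend, the replicate block or the t-test leaves any log2 fold change as it was, so these alternatives could not turn a direction. Leaving out 1 array cannot turn it either where the groups do not overlap, as in 8 of the 10. The number of members called lower, 1 in the test as reported, was 3 with median centring, 4 with array weights, and 0 without the trend, with the replicate block, with the methods' t-test after Benjamini-Hochberg adjustment, with the criterion of fold over 1.5 and an unadjusted p, or without the probe sets that may cross-hybridize; leaving out 1 array gave 0 to 1. With median centring and with array weights the added calls included the brighter MT1X probe set (limma adjusted p of 0.0298 and 0.0319) and the dimmer MT1F probe set (0.0452 and 0.0292), and array weights added MT2A (0.0299). The number called higher, 1 as reported, was 0 with the replicate block, the methods' t-test or the fold criterion, and 0 to 1 when 1 array was left out. No member changed by a fold of 1.5, so the fold criterion could call none in either direction. Without the probe sets that may cross-hybridize, only MT1M was left of the metallothioneins, with its test as reported. That alternative could therefore give no lower metallothionein call. Over all tested probe sets 1943 calls became 568 with the replicate block, 267 with the methods' t-test and 696 (without LV-shIL-1β replicate 2) to 1808 with 1 array left out. The log2 fold change of the brightest MTF1 probe set turned to -0.00314 under quantile normalization, where it again did not pass (limma). The deviations of same-numbered arrays correlated at -0.394, -0.112 and -0.214. They were taken from means of 3 arrays, which ties these correlations to one another, so they cannot decide whether the numbers pair the samples. No source used here states a pairing. Of 240 values of the 15 members under alternatives, 220 kept their direction and side of the threshold, mostly at probe sets that had not passed the test as reported. Of the called probe sets, the dimmer one of MT1X lost its call in 7 of 16 alternatives and the dimmer one of SLC30A1 in 7 of 16. Of the called probe sets of IL1B, the gene lists and RWDD2B, 33 in all, 17 kept their call without each array and with the replicate block, and over all alternatives the call was lost in 119 of 525 values and the direction turned in none. The cause of these differences was not tested. Both called members rest on 1 probe set each and 3 arrays a group.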

Other observations

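Genes tied to other known inducers of metallothioneins, by response or as cytokines and receptors, were read by their brightest tested probe set. For comparison with each list, 46.8% of all tested probe sets were below 0, 3.37% were called lower and 3.68% called higher. Of 8 glucocorticoid-responsive genes 6 were below 0, with a median log2 fold change of -0.14, against 0.01 over all tested probe sets. TSC22D3 (-0.53 ± 0.06) and SGK1 (-0.14 ± 0.03) fell, DUSP1, a phosphatase that inactivates MAP kinases, rose (0.73 ± 0.10), and the other 5 did not pass (limma). The dimmer tested DUSP1 probe sets gave 0.01 and 0.11 and did not pass (limma adjusted p of 0.968 and 0.606). The SGK1 call was lost without LV-shIL-1β replicate 2 (limma adjusted p = 0.161), LV-shIL-1β replicate 3 (0.094), LV-shNC replicate 1 (0.104), LV-shNC replicate 2 (0.0912) or LV-shNC replicate 3 (0.098), and with the replicate block (0.146). TSC22D3, a classical glucocorticoid target, gave 142.0, 128.7 and 143.4 in LV-shIL-1β cells, against 201.5, 194.5 and 201.5 in LV-shNC cells. Of 9 IL-6 and STAT3 pathway genes 8 were above 0, with a median of 0.14. The cytokines IL6 (1.05 ± 0.12) and LIF (0.36 ± 0.09) and the acute-phase transcription factor CEBPB (0.32 ± 0.03) rose, the receptor OSMR fell (-0.21 ± 0.04), and the other 5 did not pass. SOCS3, among those 5, gave 0.02 (limma adjusted p = 0.912), and its other tested probe sets gave -0.09 and -0.03. Because the list includes the cytokines and receptors themselves, its median is no measure of a response to IL-6. The calls of LIF and OSMR were lost without LV-shIL-1β replicate 2 (limma adjusted p of 0.158 and 0.0853), LV-shIL-1β replicate 3 (0.106 and 0.0658), LV-shNC replicate 2 (0.121 and 0.052) or LV-shNC replicate 3 (0.106 and 0.0629), and with the replicate block (0.143 and 0.103). At OSMR the next brightest probe set gave -0.34 ± 0.06 and passed (limma adjusted p = 0.00838). It kept its call without each array but not with the replicate block (limma adjusted p = 0.0632). The dimmest OSMR probe set gave -0.24 ± 0.065 and did not pass (limma adjusted p = 0.0579). IL6 gave 312.8, 339.2 and 309.2 in LV-shIL-1β cells, against 193.0, 127.8 and 149.3 in LV-shNC cells.

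Of 13 metal, heat and oxidant stress genes, GCLM, a subunit of the enzyme that starts glutathione synthesis, rose (0.40 ± 0.07) and so did SLC7A11, the cystine importer (0.35 ± 0.06), while the other 11 did not pass at their brightest probe set. NQO1, a quinone reductase, was higher without overlap at all 3 of its probe sets, and 1 that was not its brightest passed (0.20 ± 0.05, limma adjusted p = 0.0328). That call was lost without any 1 array but LV-shIL-1β replicate 1 (limma adjusted p from 0.0723 to 0.125) and with the replicate block (0.152). HMOX1, induced by heme and heavy metals, averaged 33.72 ± 1.63 in LV-shIL-1β cells and 32.04 ± 2.7 in LV-shNC cells (SD, n = 3 each). The GCLM call was lost without LV-shIL-1β replicate 2 (limma adjusted p = 0.0537) and with the replicate block (0.0562). Of 8 copper-handling genes SOD1, the copper and zinc superoxide dismutase, fell (-0.21 ± 0.04), and the call was lost without LV-shIL-1β replicate 3 (limma adjusted p = 0.0597), without LV-shNC replicate 3 (0.0581) and with the replicate block (0.0721).

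Markers of other cell types were near the floor or dim. Of 7 leukocyte genes on the array only CD14 passed the filter, and it rose (0.51, with 70.4 ± 4.07 in LV-shIL-1β cells and 49.46 ± 2.76 in LV-shNC cells, SD, n = 3 each). Of 6 endothelial genes only PECAM1 passed the filter, and it did not pass the test. Of 5 fibroblast genes above the filter all 5 were below 0 at their brightest probe set, as were 46.8% of all tested probe sets. At that probe set COL1A2 and LUM fell. COL1A1, a fibrillar collagen, did not pass there (-0.16) but fell at 2 of its other tested probe sets (-1.08 ± 0.12 and -0.73 ± 0.12, limma adjusted p of 0.00103 and 0.00702). The COL1A2 call was lost without LV-shIL-1β replicate 2 (limma adjusted p = 0.0598) or LV-shIL-1β replicate 3 (0.0539). The summed signal of all 31 fibroblast probe sets was between 334.2 and 347.6 in LV-shIL-1β and between 431.7 and 465.8 in LV-shNC. Whether these markers have a part in the metallothionein values was not tested.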
